A study of Homo sapiens with 6 samples.

Results

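Genes of insulin-like growth factor (IGF) signalling were followed in U2OS cells, a human osteosarcoma cell line, after knockdown of the histone demethylase LSD1. The 10 chosen by name were the IGF binding proteins IGFBP2 to IGFBP7, the receptors IGF1R and IGF2R and the adaptors IRS1 and IRS2, with the rise of IGFBP3 after knockdown already known. The deposited count table gave rows for 8 of these 10 genes among 15585, and IGFBP2 and IGFBP5 were not analysed here. All 8 passed the filter on low counts, as did 11844 genes in all.

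The 6 libraries came from U2OS cells transfected for 48 h with control siRNA (siCTR, 3 libraries) or with LSD1 siRNA (siLSD1, 3 libraries), and both groups share the transfection and the cell line. The methods of the study list 2 siRNA duplexes against LSD1, and the labels do not say which was used for these libraries. Nothing in the labels says that replicates were separate cultures, so the errors measure the spread between these libraries. The libraries held 12513511 to 13561344 counted reads. KDM1A, which encodes LSD1, had 6140, 6493 and 6573 reads in siCTR and 1110, 1198 and 1246 reads in siLSD1, a log2 fold change of −2.44 (standard error, SE, 0.11). Of 8 mesenchymal or osteoblastic markers, 6 were in the table and 4 were at 1 CPM or more, among them VIM and ALPL, while RUNX2 and SPARC had at most 5 reads in any library.

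IGF1 and IGF2 are secreted growth factors that activate IGF1R, a receptor tyrosine kinase, which passes the signal through the docking proteins IRS1 and IRS2 to the PI3K-AKT and RAS-MAPK branches. IGF2R has no kinase activity, removes IGF2 from the cell surface and sorts enzymes that carry mannose 6-phosphate to the lysosome. The IGF binding proteins hold the ligands outside the cell, and secreted proteases release the ligands again by cutting them. In bone, IGFs are among the most abundant stored growth factors, and osteoblasts secrete several of the binding proteins.

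The binding protein genes lie in part side by side in the genome. IGFBP3 (ENSG00000146674.16) spans chr7:45912245-45921874 on the − strand of GRCh38 and is separated from IGFBP1 by 18584 bases. IGFBP4 (ENSG00000141753.7) spans chr17:40443450-40457725 on the + strand, and IGFBP6 (ENSG00000167779.9) spans chr12:53097436-53102345 on the + strand. IGFBP7 (ENSG00000163453.11) spans chr4:57030773-57110385 on the − strand. Of the signalling genes, IRS1 (ENSG00000169047.6) spans chr2:226731312-226799820 on the − strand and has 2 exons in its canonical transcript, as does IRS2. IGF2R, with 48 exons, has the longest transcript of the group with 14061 bases, and IGFBP6 the shortest with 947 bases.

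The promoter stretches of the 2 genes with the largest changes, IGFBP3 and IRS1, are shown with those of IGFBP4 and IGFBP6 for comparison. Each runs from 45 to 16 bases before the RefSeq start site (GRCh38.p14), 5′ to 3′ on the strand of the gene, and capitals mark a TATA element, searched as TATAAA or TATATA beginning 40 to 20 bases before the start site on that strand only.
IGFBP3, chr7:45921288-45921317, − strand: ggccaccccggcttcTATATAgcggccggc
IGFBP4, chr17:40443405-40443434, + strand: tgtggccagggaccggTATAAAgtccgggg
IGFBP6, chr12:53097622-53097651, + strand: ccctggccggcggctacttaagacagaggg
IRS1, chr2:226799836-226799865, − strand: cgggctcggcccggaatgtagagacccggg
IGFBP3 and IGFBP4 hold the element, which is found in 3.12% of the 35116 RefSeq promoters, whereas the IGFBP6 and IRS1 windows do not. GGGCGG on either strand, the core of a GC box, occurs within 250 bases before the start site in 42.6% of all promoters. It is present 2 times before IGFBP3, 1 time each before IGFBP4 and IGFBP6, and 4 times before IRS1. The matches describe letters and not bound sites, and RefSeq promoters were matched for 9 of the 10 listed genes, without IGFBP7.

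IGFBP3 encodes the main carrier of IGFs in blood. It had 248, 299 and 270 reads in the control libraries, in the order of their numbers, against 538, 486 and 629 after knockdown. In CPM, which relates the reads to the size of each library as scaled by edgeR's TMM factors, it was at 20.8 ± 2.19 (SD, n = 3) in siCTR and 41.9 ± 4.13 (SD, n = 3) in siLSD1. The lowest siLSD1 library, at 39.0 CPM, was well above the highest siCTR library, at 23.3 CPM. The log2 fold change was 1.01 (SE 0.13), a 2.01-fold higher level, and ranks 94 from the top among the 11844 genes tested. This rise was the reason the gene was chosen, and it is given as a description.

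IRS1, a docking protein downstream of IGF1R and the insulin receptor, had 275, 193 and 261 reads in siCTR and 468, 384 and 407 reads in siLSD1. Its level was 18.5 ± 3.17 CPM in siCTR and at 32.0 ± 2.55 CPM in siLSD1 (SD, n = 3 each), so that all 3 siLSD1 libraries lay above all 3 siCTR libraries. The log2 fold change was 0.78 (SE 0.15), or 1.72-fold. IRS2, the second docking protein, was at 204 ± 12.5 CPM in siCTR and at 210 ± 27.1 CPM in siLSD1 (SD, n = 3 each). Its reads were 2834, 2562 and 2616 in siCTR and 3100, 2747 and 2424 in siLSD1, and the groups overlapped. The log2 fold change of IRS2 was 0.04 (SE 0.12), and −0.02 after correction for GC content and transcript length. The 2 adaptor genes therefore had unequal changes in the same libraries. Per gene length, IRS2 was 12.3, 15.8 and 11.95 times the level of IRS1 with control siRNA, against 7.90, 8.53 and 7.10 times after knockdown.

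IGF2R had 3512, 2039 and 3268 reads in siCTR and 4061, 3628 and 3970 reads in siLSD1. At 224 ± 58.2 CPM in siCTR and at 296 ± 5.94 CPM in siLSD1 (SD, n = 3 each) it had a log2 fold change of 0.40 (SE 0.16). IGF1R, the signalling receptor, had 3758, 2704 and 3562 reads in siCTR and 4175, 3619 and 3958 reads in siLSD1. It was at 255 ± 40.4 CPM in siCTR and at 298 ± 11.2 CPM in siLSD1 (SD, n = 3 each), a log2 fold change of 0.23 (SE 0.13), and of 0.12 after correction for GC content and length. For both receptors the siCTR libraries spread far more widely than the siLSD1 libraries, and siCTR replicate 2 was the lowest. The 2 groups did not overlap for either gene, but for IGF1R the gap was narrow, between 289 CPM in siCTR replicate 1 and 290.4 CPM in siLSD1 replicate 2.

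IGFBP4, which holds IGFs away from the receptor until PAPPA cuts it, had 893, 1046 and 749 reads in siCTR and 1341, 1060 and 937 reads in siLSD1. Its log2 fold change was 0.31 (SE 0.16), and the groups overlapped. It was 0.17 without siCTR replicate 3 or without siLSD1 replicate 1, 0.45 without siCTR replicate 2, and 0.43 after correction for GC content and transcript length. Genes of low GC content stood lowest against those of high GC content in siLSD1 replicate 1, by −0.31 on the log2 scale, and highest in siLSD1 replicate 3, by 0.40, and the part of this in the values was not tested. IGFBP7, a distant relative that binds IGFs weakly, had 1018, 1175 and 996 reads in siCTR and 1349, 1122 and 1201 reads in siLSD1, a log2 fold change of 0.20 (SE 0.12). Here too the groups overlapped, since siCTR replicate 2 was above 2 of the siLSD1 libraries in CPM. IGFBP6, which prefers IGF2 over IGF1, was the only one of the 8 genes with a lower mean after knockdown. It had 102, 132 and 97 reads in siCTR and 90, 71 and 79 reads in siLSD1, a log2 fold change of −0.47 (SE 0.19), and in CPM every siLSD1 library was below every siCTR library. After correction for GC content and transcript length its log2 fold change was −0.21. These are bulk libraries, in which fewer cells expressing a gene and less RNA per cell cannot be told apart.

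**Figure D1:**
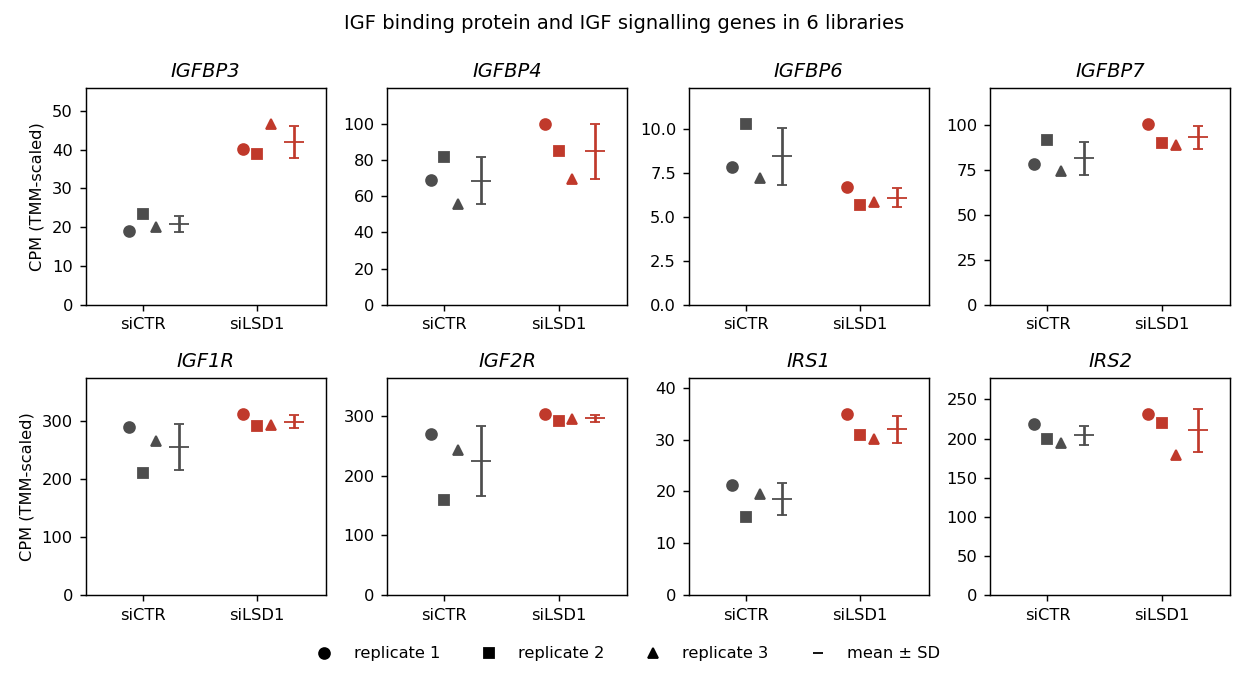
TMM-scaled CPM of 8 genes in 3 siCTR and 3 siLSD1 libraries, with 1 point per library, the symbol giving the replicate number, and the mean ± SD beside the points. IGFBP3 and IRS1 do not overlap between the groups, and siCTR replicate 2 (square) is the lowest library for IGF1R, IGF2R and IRS1.

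As a group, 7 of the 8 genes had a higher and 1 a lower mean in siLSD1, and the median log2 fold change was 0.27, beside −0.01 over all genes tested. IRS2, one of the 7, was below 0 after the correction for GC content and length. In the edgeR quasi-likelihood fit over all genes, 2 of the 8, IGFBP3 and IRS1, passed a Benjamini-Hochberg adjusted p of 0.05 in the direction of higher expression, a threshold passed in that direction by 1.07% of all genes tested. None of the 8 passed in the other direction, which 0.371% of genes did, and over both directions 1.44% of genes passed. DESeq2 and limma-voom called the same 2 genes higher and none lower, where DESeq2 called 1.77% of all genes higher and 0.954% lower, and limma-voom 1.02% and 0.321%. With 1 library left out, edgeR called 1 to 2 of the 8 higher, and 45 to 99 over all genes. Where 1 was called it was IGFBP3, and IRS1 had lost its call. At an unadjusted p under 0.05 in edgeR, 3 of the 8 were higher (IGFBP3, IGF2R and IRS1), where 7.48% of all genes were, and 1 was lower (IGFBP6), where 6.55% were. The groups did not overlap for 4 genes with higher levels (IGFBP3, IRS1, IGF1R and IGF2R), as for 11.4% of all genes tested, and for 1 gene with lower levels (IGFBP6), as for 9.97%. Because the genes were picked with this comparison in view, nothing is read from these shares. With the correction for GC content and length, the calls among the 8 genes were 5, namely IGF2R, IGFBP3, IGFBP4, IGFBP7 and IRS1, while over all genes the calls changed from 127 higher and 44 lower to 599 higher and 414 lower.

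**Figure D2:**
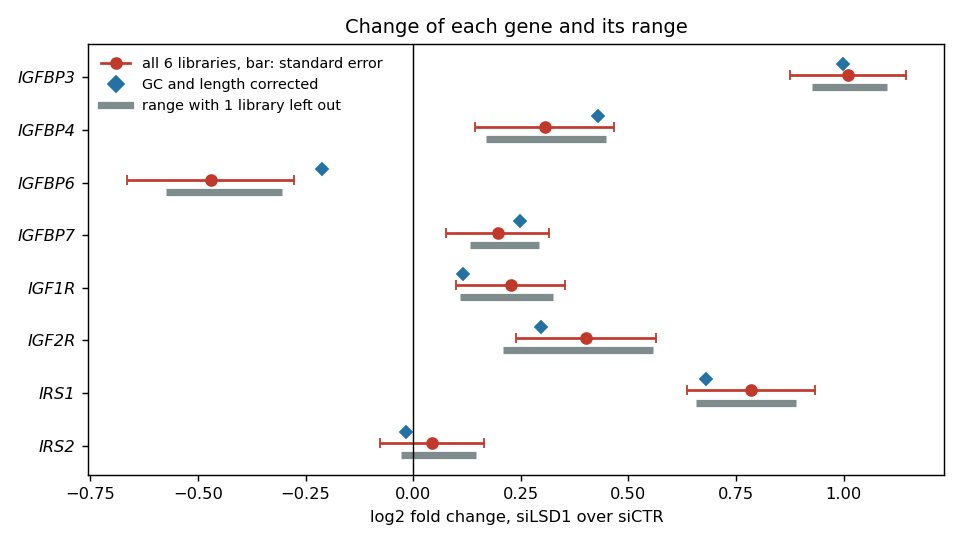
Log2 fold change of siLSD1 over siCTR for 8 genes, with the standard error in the fit of all 6 libraries (circles), the value after correction for GC content and transcript length (diamonds), and the range of the 6 fits that each left out 1 library (grey bars). IGFBP3 stays between 0.93 and 1.10, whereas the bar of IRS2 spans 0.

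The control library siCTR replicate 2 stood apart from the rest by transcript length. In siCTR replicate 2, long transcripts were lower than short ones by a median of 0.39 on the log2 scale relative to the mean of all libraries (−0.39 between the longest and the shortest 25% of genes), where the other 5 libraries had differences of −0.04 to 0.22. Among the 8 genes, siCTR replicate 2 held 61.8% of the mean CPM of the other siCTR libraries for IGF2R, 76.0% for IGF1R, 74.1% for IRS1 and 96.7% for IRS2, whose transcript of 8156 bases is also long. It held 119% for IGFBP3, 120% for IGFBP7, 131% for IGFBP4 and 136% for IGFBP6, all with transcripts under 3 kilobases. Leaving this library out gave log2 fold changes of 0.21 for IGF2R, 0.11 for IGF1R and 0.66 for IRS1 and 0.03 for IRS2. The binding protein genes were then at 1.10 for IGFBP3, 0.45 for IGFBP4, 0.29 for IGFBP7 and −0.30 for IGFBP6. IGFBP6 and IGFBP4 thus moved about as far as IGF1R and IRS1, upwards where IGF1R and IRS1 moved down, and IRS2 hardly moved. Without this library IRS1 was no longer past the adjusted threshold, nor was it without siCTR replicate 3, siLSD1 replicate 1 or siLSD1 replicate 2, where its log2 fold changes were 0.82, 0.72 and 0.82. In these 4 smaller fits the genes called higher over the whole table also went down, from 127 to between 45 and 65.

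**Figure D3:**
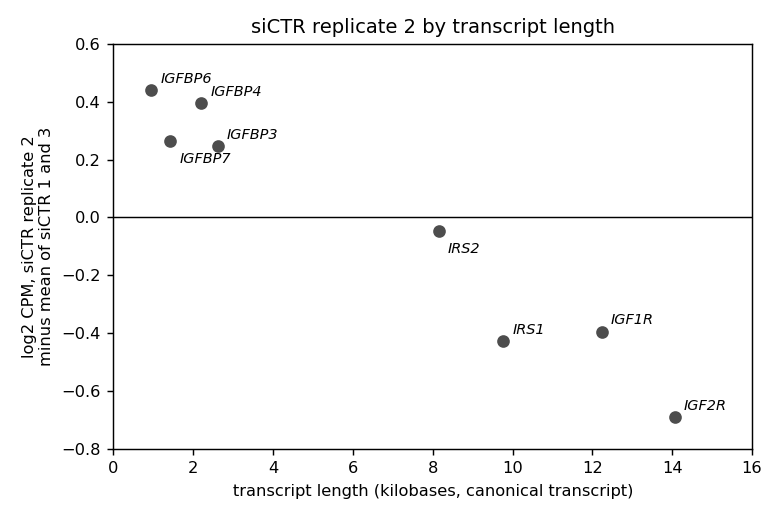
Difference in log2 CPM between siCTR replicate 2 and the mean of siCTR replicates 1 and 3, plotted against the length of the canonical transcript in kilobases, with 1 point per gene. The 4 binding protein genes are above 0, IRS2 lies at −0.05, and IRS1, IGF1R and IGF2R lie at −0.43, −0.39 and −0.69.

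The order of the genes was read from FPKM, which scales reads by gene length. In siCTR the levels in FPKM were 44.7 ± 4.54 for IGFBP7, 31.1 ± 5.60 for IGFBP4, 25.1 ± 1.77 for IRS2, 20.8 ± 3.54 for IGF1R and 15.97 ± 4.31 for IGF2R (SD, n = 3 each). Below them were IGFBP3 at 7.89 ± 0.732, IGFBP6 at 6.28 ± 1.13 and IRS1 at 1.91 ± 0.348 FPKM (SD, n = 3 each). IGFBP4 and IRS2, IGF1R and IGF2R, and IGFBP3 and IGFBP6 were neighbours in this order whose libraries overlapped, so that their order is not resolved. IRS2 and IGF1R were barely apart, with 23.91 FPKM in the lowest siCTR library of IRS2 and 23.89 FPKM in the highest of IGF1R. In siLSD1 the order of the means was the same, but IGFBP3, at 15.9 ± 1.51 FPKM (SD, n = 3), was now clear of IGFBP6, at 4.54 ± 0.443 FPKM (SD, n = 3). IRS2 and IGF1R were then the only neighbours that overlapped.

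The make-up of the binding protein transcripts was followed within each library. Of the summed FPKM of 5 genes (IGFBP1, IGFBP3, IGFBP4, IGFBP6 and IGFBP7), IGFBP3 took 8.15%, 8.31% and 9.41% with control siRNA, against 12.3%, 13.4% and 16.8% after knockdown. IGFBP7 held the largest share in every library, at 48.8% ± 1.51 (SD, n = 3) in siCTR and 45.4% ± 0.921 (SD, n = 3) in siLSD1. IGFBP4 held 33.7% ± 2.15 (SD, n = 3) and 33.9% ± 3.57 (SD, n = 3), with overlapping libraries. The ratio of IGF1R to IGF2R in FPKM was 1.23, 1.52 and 1.25 in siCTR and 1.18, 1.15 and 1.14 in siLSD1, and that of IGF1R to the insulin receptor gene INSR was 3.62 ± 0.256 (SD, n = 3) in siCTR and 4.19 ± 0.232 (SD, n = 3) in siLSD1.

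**Figure D4:**
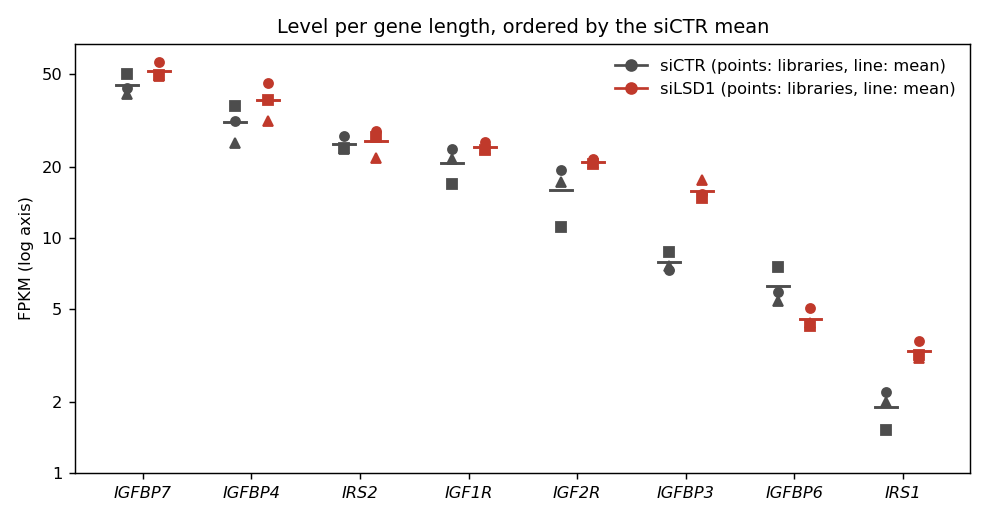
FPKM of 8 genes on a log axis, ordered by the siCTR mean, with 1 point per library and a line at the mean of each group. IGFBP7 is highest at 44.7 and IRS1 lowest at 1.91 FPKM in siCTR, and IGFBP3 moves from 7.89 to 15.9 FPKM.

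Other genes of the pathway were taken from a list of 90 genes in 13 roles, written from general knowledge, of which 82 were in the table and 71 were tested. The median log2 fold change of these 71 genes was −0.001, with 35 higher and 36 lower, beside −0.01 over all genes. By the quasi-likelihood test of edgeR, Benjamini-Hochberg adjusted over all genes, 3 of the 71 rose, where 1.07% of all genes did, and 0 fell. At an unadjusted p under 0.05, 8 of the 71 were higher and 4 lower, beside 7.48% and 6.55% of all genes. DESeq2 called the same 3 genes higher and 0 lower, with 7 higher and 3 lower at an unadjusted p under 0.05 (7.04% and 6.13% of all genes), and limma-voom called 2 higher and 0 lower, with 8 and 4 at an unadjusted p under 0.05 (7.69% and 6.60% of all genes). At the adjusted threshold DESeq2 called 1.77% of all genes higher and 0.954% lower, and limma-voom 1.02% and 0.321%.

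The ligands themselves were almost unread. IGF1 had 0 reads in all 3 siCTR libraries and 0, 1 and 0 reads in siLSD1, where a count of 0 allows up to 3 reads or 0.221 to 0.240 CPM per library. IGF2 had 2, 1 and 5 reads in siCTR and 0, 5 and 0 reads in siLSD1. No fold is given for either gene. INSR, the receptor for insulin, had 740, 534 and 796 reads in siCTR and 702, 680 and 701 reads in siLSD1, with a log2 fold change of 0.01 and a standard error of 0.14.

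The list holds 10 tested genes that are further binding proteins, cut the binding proteins or inhibit that cutting, or share their domain. Of these 10 genes, 3 rose, beside 1.07% of all genes. The group pools the roles that hold all 3 called genes of the list, so nothing is read from this share. CCN1 (listed as CYR61) and CCN2 (listed as CTGF) encode secreted matrix proteins that begin with an IGFBP domain. CCN1 had 2287, 2405 and 2433 reads in siCTR and 4612, 4030 and 4607 reads in siLSD1, a log2 fold change of 0.89 (SE 0.10) and an adjusted p of 0.00149 from edgeR. CCN2 had 1143, 1279 and 1201 reads in siCTR and 2358, 2192 and 2268 reads in siLSD1, with a log2 fold change of 0.91, a standard error of 0.11 and the same adjusted p of 0.00149 from edgeR. Replicates of both genes lay close together, and no siCTR library reached the level of any siLSD1 library. Both stayed past the threshold in all 17 alternatives, where the highest adjusted p was 0.0145 for CCN1 and 0.0169 for CCN2, both in edgeR.

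STC2, stanniocalcin-2, is an inhibitor of the IGFBP protease PAPPA. It had 541, 416 and 476 reads in siCTR and 740, 614 and 906 reads in siLSD1, a log2 fold change of 0.65 (SE 0.15) and an adjusted p of 0.0478 from edgeR. All siLSD1 libraries were above all siCTR libraries. The adjusted p of STC2 lay just under the threshold and was 0.0577 with scaling by library size in edgeR, 0.0534 with limma-voom, and from 0.0349 to 0.159 in the edgeR fits that left out 1 library. It was under the threshold without siCTR replicate 1 and above it without any one of the other 5 libraries. Its target PAPPA had few reads, 10 to 12 in siCTR and 7 to 11 in siLSD1, and PAPPA2, which cuts IGFBP3 and IGFBP5, had 6 to 8 reads in siCTR and 10 to 12 in siLSD1, and neither passed the threshold (adjusted p = 0.786 and 0.526 from edgeR). HTRA1, a secreted serine protease that cuts IGFBP5, had 85, 96 and 76 reads in siCTR and 66, 51 and 69 reads in siLSD1, a log2 fold change of −0.47 that did not pass either (adjusted p = 0.305 from edgeR).

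IGFBP1, next to IGFBP3 on chromosome 7, had 31, 52 and 42 reads in siCTR and 54, 68 and 65 reads in siLSD1. Its log2 fold change was 0.58 (SE 0.25), the groups overlapped in CPM, and the adjusted p was 0.316 from edgeR. On the other side of IGFBP3, which ends at chr7:45921874, the nearest protein-coding genes are TNS3, from chr7:47275154, and PKD1L1, from chr7:47740202. TNS3, a focal adhesion protein, had a log2 fold change of 0.12 (SE 0.14), and PKD1L1, with 3 to 9 reads in each library, was not tested. Around the IGFBP2-IGFBP5 pair (chr2:216632828-216695549), the log2 fold changes were 0.34 for SMARCAL1, −0.22 for RPL37A and 0.39 for TNS1, which starts at chr2:217799588. None of these passed in edgeR (adjusted p = 0.250, 0.542 and 0.386). CCDC201 and TNP1, also named by position, were not analysed here.

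Inside the cell, and apart from IRS1 and IRS2, which are not on this list, none of the 8 tested adaptors, 7 PI3K-AKT genes, 11 mTOR genes or 8 RAS-MAPK genes passed the adjusted threshold, which 1.44% of all genes passed. None of these had an unadjusted p under 0.05, beside 7.48% of all genes higher and 6.55% lower. DESeq2 and limma-voom called none of them. The log2 fold changes ran from −0.38 to 0.17 for the adaptors, from −0.19 to 0.01 for PI3K-AKT, from −0.27 to 0.17 for the mTOR branch and from −0.13 to 0.04 for RAS-MAPK. With the correction for GC content and length, AKT1S1 of the mTOR branch was called higher, where 5.09% of all genes were called higher and 3.52% lower. With the correction and the replicate block, GAB1 and RHEB were also called lower (all genes: 7.0% higher, 5.97% lower). With the correction and without siCTR replicate 2, MTOR and TSC2 were called lower and AKT1S1 was not called (all genes: 5.46% higher, 3.95% lower).

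Genes with an unadjusted p under 0.05 that missed the adjusted threshold came from other roles on the list. TRIB3, a pseudokinase that binds AKT, had a log2 fold change of 0.46 (SE 0.13), PTPN11, the phosphatase SHP2, which mostly carries receptor signals on towards RAS although the list places it with the negative regulators, of 0.32 (SE 0.11), and SOCS2, an inhibitor of cytokine and growth hormone signalling, of −0.96 (SE 0.29). SOCS2 rested on 39, 33 and 31 reads in siCTR and 18, 20 and 15 reads in siLSD1. CCN5 (listed as WISP2) had a log2 fold change of 0.47, GSK3B, a kinase that AKT switches off, of 0.32, BAD, a death-promoting BCL2 relative that AKT phosphorylates, of −0.52, and GNPTG, a subunit of the enzyme that makes the mannose 6-phosphate tag read by IGF2R, of −0.39. For BAD the value was −0.27 without siCTR replicate 2, which had 677 reads against 409 and 475 in the other siCTR libraries, and −0.25 with the correction for GC content and length. The adjusted p-values of these 7 genes lay between 0.127 (TRIB3) and 0.276 (BAD) in edgeR. With the correction for GC content and length, TRIB3, PTPN11, CCN5 and GSK3B were past the threshold and SOCS2, BAD and GNPTG were not. In that fit 5.09% of all genes were called higher and 3.52% lower.

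**Figure D5:**
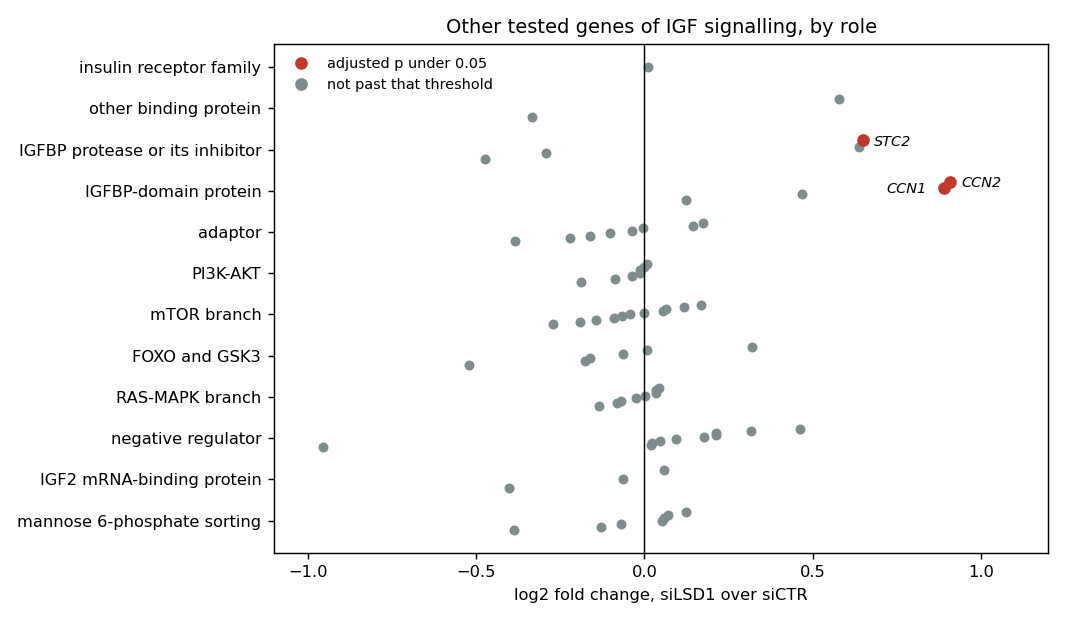
Log2 fold change of siLSD1 over siCTR for the 71 tested genes of the IGF signalling list, grouped by role, with genes past an adjusted p of 0.05 in edgeR's quasi-likelihood test in red. The 3 red points are STC2, CCN1 and CCN2, at 0.65, 0.89 and 0.91, and the other genes lie between −0.96 and 0.64.

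The genes whose pattern over the 6 libraries was most like that of IGFBP3 were sought among the 11565 tested genes that averaged 1 CPM or more. Likeness was the root mean square difference of log2 CPM, centred on the siCTR mean of each gene. The closest were ACRBP at 0.093, IDNK at 0.098 and CCN1 at 0.123. ACRBP and IDNK are weakly expressed, with 11 to 15 and 19 to 23 reads in siCTR and 21 to 32 and 39 to 44 reads in siLSD1, so CCN1 was the closest gene with many reads. CCN2 ranked 4 at 0.125, IRS1 ranked 122 at 0.304 and STC2 ranked 140 at 0.322. All these profiles share the same libraries and their depth, and the measure includes the change that chose IGFBP3.

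Markers of other cell types were low. The summed level of 4 epithelial markers was 7.21 to 9.70 CPM in siCTR and 12.7 to 13.6 CPM in siLSD1, that of 4 haematopoietic markers was 1.86 to 3.43 CPM and 1.56 to 3.80 CPM, and that of 3 endothelial markers was 5.14 to 8.01 CPM and 11.6 to 13.0 CPM. Among the endothelial markers, VWF rose from 63 to 103 reads to 152 to 161 reads (adjusted p = 0.0418 from edgeR), while PECAM1 and TEK had at most 5 reads in every library. The summed level of the 6 mesenchymal or osteoblastic markers in the table was 1127 to 1233 CPM in siCTR and 1202 to 1253 CPM in siLSD1. The log2 fold changes were −0.02 for VIM, 0.11 for ALPL and 0.17 for COL1A1, with overlapping groups, and FN1 rose, with 238 to 433 reads in siCTR and 609 to 794 reads in siLSD1 (adjusted p = 0.0216 from edgeR). Their part in the changes of the IGF genes was not tested.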

How the data were processed

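RNA-seq libraries of U2OS cells (3 siCTR, 3 siLSD1) were grouped by their labels. STAR was the aligner of the authors, who deposited whole read counts per gene, without normalization. The genome build, annotation and counter are not given in the sources used here. The authors also deposited FPKM, whose gene lengths came out as whole bases (within 0.01 bases) for 100% of 9455 genes, and a signal, in which each library's counts are scaled by its size factor, which was mapped but not used. Deposited tables of the 3 library pairs hold a second counting of the same libraries. The fold changes and p-values of the authors' comparisons were not used. Sample columns without a mapping numbered 0.

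Counts were tested by the quasi-likelihood method of edgeR 4.0.16 in R 4.3.3, after TMM scaling and a filter (filterByExpr, at least 10 counts), with Benjamini-Hochberg adjustment over 11844 genes, and DESeq2 1.42.0 and limma 3.58.1 (voom) served as alternatives. Log-CPM values used a prior count of 2. The biological coefficient of variation was 12.6%. The GC and length correction added lowess trends (span 0.3) on both properties to the offsets. In simulated counts for this comparison, 190 of 200 genes changed by 1 on the log2 scale were recovered among 11850 tested, with 6 false calls. The simulated libraries had no GC or length trends of their own, unlike the real ones, so these figures do not cover such trends. No 2 libraries were within sampling noise of each other (chi-square per degree of freedom 6.19 to 37.4). Of 15585 symbols, 14963 matched GENCODE release 44 (GRCh38), which gave all gene coordinates, and 389 matched through an older symbol. Intervals for a count of 0 cover counting error only. Other steps used Python 3.11.15.

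The genes and the lists were chosen with earlier results of these data known. Named were the 8 measured genes, KDM1A, list genes with an adjusted p under 0.05 and then by p up to 12, IGF1, IGF2, INSR, IGFBP1, 2 protein-coding neighbours on each side of IGFBP3 and of the IGFBP2-IGFBP5 pair, and the 3 genes most like IGFBP3. AKT1S1, PAPPA, PAPPA2, CCN2, IRS1 and STC2 in the likeness ranking, the members of the marker lists and further list genes called under an alternative were named after their values were seen.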

Additional observations from a re-analysis of the deposited data

How the results depend on the processing

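The log2 fold changes of IGFBP3, IGFBP4, IGFBP7, IGF1R, IGF2R, IRS1 and IRS2 moved by less than the replicate SD in all 17 alternatives, and IGFBP3 lay between 0.93 and 1.10. That SD includes siCTR replicate 2, which widens it for the receptors. Without that library IGF2R went from 0.40 to 0.21 and IGF1R from 0.23 to 0.11. IGFBP6 was at −0.21 with the GC and length correction, −0.21 with this correction and the replicate block, and −0.17 with this correction and without siCTR replicate 2, an alternative chosen after seeing the data. Of the measured genes, 5 were called higher under these 3 fits, and 1 to 2 with 1 library left out, and 0 were called lower in any fit. List genes called higher numbered 5 with the replicate block, 8 and 8 with the correction without and with the block, 7 with the correction and without siCTR replicate 2, and 2 to 4 with 1 library left out. Those called lower were 1 (BAD) with the replicate block, 4 (FOXO3, GAB1, GNPTG and RHEB) with the correction and the block, and 4 (IGF2BP2, MTOR, SOCS1 and TSC2) with the correction and without siCTR replicate 2. Over all genes, calls were 210 higher and 113 lower with DESeq2, 102 lower with no filter, 489 higher and 408 lower with the replicate block, 599 and 414 with the correction, 823 and 702 with both, and 651 and 471 with the correction and without siCTR replicate 2. With 1 library left out they were 45 to 99 higher and 7 to 37 lower, with 3 libraries against 2. The cause was not tested. KDM1A stayed between −2.47 and −2.38.

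Libraries with the same replicate number had correlations of their deviations across genes of 0.33, 0.07 and 0.31. Those with different numbers had correlations from −0.29 to 0.007, so libraries of the same number were the more alike. The labels do not say that the numbers are pairs, and the main fit had no replicate term. The replicate block added IGF2R to the calls, 3 in all. Low counts limit the precision for IGFALS (16 to 33 reads), IGFBP1 (31 to 68 reads) and IGFBP6 (71 to 132 reads). The same holds for PAPPA (7 to 12 reads), PAPPA2 (6 to 12 reads), SOCS2 (15 to 39 reads) and HTRA1 (51 to 96 reads). SOCS1, with 2 to 18 reads, was not tested in the main fit.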

Other observations

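In the second counting the reads of the 8 measured genes were 1.05 to 1.27 times those of the first in each library, and IGFBP3 had 283, 325 and 284 reads in siCTR and 599, 525 and 701 reads in siLSD1.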
